A study of Mus musculus with 20 samples.

Results

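Of 24421 gene symbols counted in mouse kidney, 10 are described here: Olfml2b, Fcgr2b, Cfap126, Apoa2, Klhdc9, Slamf7, Copa, Pea15a, Tagln2 and Dusp23. They are neighbours of Fh1, the gene deleted in this study, and were picked from earlier results of the same libraries as genes on chromosome 1, within 20 Mb of Fh1 and outside the interferon-inducible p200 family, that differed between Fh1-/- and Fh1+/+ kidneys. Because they were chosen by the genotype difference, its values are given below as a description and support nothing. Which day or which tool made each choice is not stated. The name of changed genes holds unevenly: Copa passed the fold threshold of a call at neither day, and Tagln2 stood apart at day 10 alone, with overlap between the groups.

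The libraries form 4 groups of 5, Fh1-/- and Fh1+/+ kidneys collected 5 and 10 days after induction. All mice, 12 weeks old at induction, were given 3 intraperitoneal doses of 2 mg tamoxifen and carried 2 copies of CreERT2, a recombinase activated by tamoxifen, at the Rosa26 locus, whose promoter is active throughout the body. Fh1-/- mice also carried, on both chromosomes, an Fh1 allele with loxP sites around exons 3 and 4, which their Fh1+/+ littermates lacked, on a mixed C57BL/6 and 129/SvJ background. Each library was made from polyadenylated RNA of a piece of whole kidney, so that in every comparison below fewer cells of a type and less RNA per cell cannot be told apart. The labels number the libraries of a group without naming animals, so a p-value reflects the spread among libraries, which may be technical.

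When a gene is altered in embryonic stem cells of one mouse strain and the allele is bred into another, the DNA to either side of it is inherited along with it until recombination separates them. Mice that carry the altered allele and littermates that do not may thus differ in strain of origin over the linked interval as well as at the altered gene. The stretch before Fh1 on mouse chromosome 1 holds clusters of Fc receptor, SLAM family and p200 genes whose sequences differ between inbred strains. In the present design the flanking DNA and the loss of Fh1 are both set by genotype and cannot be told apart. The 2 collection days allow a comparison of a different kind: whether the genotype difference of each neighbour was of the same size at both days.

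All 10 genes lie before Fh1, within a single span of 1.988 Mb of chromosome 1 (GRCm38, GENCODE positions), which runs from the first base of Olfml2b at 170644532 to the last base of Dusp23 at 172632962. Fh1 itself lies on the minus strand from 175600374 to 175625635. The distance to Fh1 was largest for Olfml2b, at 4.92 Mb, and smallest for Dusp23, at 2.97 Mb. Fcgr2b (4.62 Mb), Cfap126 (4.47 Mb), Apoa2 (4.37 Mb), Klhdc9 (4.24 Mb), Slamf7 (3.95 Mb), Copa (3.48 Mb), Pea15a (3.39 Mb) and Tagln2 (3.09 Mb) lie between them in this order. None of the 10 is thus near the limit of 20 Mb. Klhdc9 overlaps Pfdn2, Copa overlaps Ncstn and Pea15a overlaps Dcaf8, in each case a protein-coding gene on the opposite strand, and since no source says whether reads were counted by strand, reads from such a pair cannot be told apart. Slamf7 overlaps the counted microRNA gene Mir7683.

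The promoters of these genes were read from RefSeq (GRCm38.p6), which gave 13 windows for the 10 genes, each from 250 bases before to 50 bases after a start. The bases before the start are printed for 3 of them: Cfap126 and Dusp23, which edgeR called at both days and whose levels followed each other most closely, and Slamf7, whose window was the only one with a match to a searched motif, in capitals. The Cfap126 window, for the first of its 3 starts, is chr1:171113736-171113985 on the plus strand. Those of Dusp23 and Slamf7 are chr1:172632975-172633224 and chr1:171649000-171649249, both on the minus strand. The RefSeq starts of Cfap126 and Slamf7 lie inside the GENCODE genes.
Cfap126: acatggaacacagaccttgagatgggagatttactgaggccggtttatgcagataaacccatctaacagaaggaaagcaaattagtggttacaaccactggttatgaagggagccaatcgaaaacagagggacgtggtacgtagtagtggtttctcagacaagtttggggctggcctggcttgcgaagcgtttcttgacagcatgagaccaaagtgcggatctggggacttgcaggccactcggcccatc
Dusp23: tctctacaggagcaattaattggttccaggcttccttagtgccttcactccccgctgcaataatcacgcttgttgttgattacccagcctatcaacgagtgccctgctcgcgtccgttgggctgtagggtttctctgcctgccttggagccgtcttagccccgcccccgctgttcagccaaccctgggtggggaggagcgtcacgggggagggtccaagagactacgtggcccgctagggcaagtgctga
Slamf7: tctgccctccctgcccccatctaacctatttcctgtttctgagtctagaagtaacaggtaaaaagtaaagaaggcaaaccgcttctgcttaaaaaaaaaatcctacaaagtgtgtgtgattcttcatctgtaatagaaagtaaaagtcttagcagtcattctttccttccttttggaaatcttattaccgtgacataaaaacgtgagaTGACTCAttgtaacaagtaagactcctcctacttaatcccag
These are the reference letters, which are those of C57BL/6, and not the alleles of the mice studied.

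Both strands of the 13 windows were searched for 6 motifs. The antioxidant response element core, TGACNNNGC, is in 12.4% of the 32851 promoters of the table and in none of the 13. AP-1, TGANTCA, is in 7.81% of all promoters and in the Slamf7 window, from base 209. The cAMP response element, TGACGTCA (1.79% of all promoters), the interferon-stimulated response element (3.44%), the STAT motif, TTCNNNGAA (8.30%), and the NF-kB motif (1.63%), are in none of the 13. The content of G and C ranged from 39.0% at Slamf7 to 69.0% at Olfml2b, against a median of 52.7% over all promoters. The printed windows of Cfap126, Dusp23 and Slamf7 hold 12, 16 and 3 CpG dinucleotides, counted with the 50 bases after the start, against a median of 7 over all promoters, and the other windows of the 10 genes hold 1 (Apoa2) to 25 (Olfml2b). The remaining windows of Cfap126 hold 3 each. A match describes letters, not a site in use.

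Total counts per library ranged from 16654829 to 25001294. Levels are in CPM, counts scaled to library size after TMM normalization, which adjusts each library by the bulk of its genes. A call needs an adjusted p under 0.01 together with a log2 fold change larger than 0.58 in size, as the study set them. Kidney markers of the listed nephron segments were present in every library, with a summed level of 10800 CPM or more. On the first principal component, Fh1-/- day 10 replicates 1 and 3 stood at 125.02 and 128.15 and the other 18 libraries between -31.34 and 30.26, so the day 10 genotype difference of each of the 10 genes is also given without these 2. Y-linked transcripts summed to 1.02 CPM or less in 8 libraries, among them Fh1-/- day 10 replicates 1, 3 and 5, and to 106 CPM or more in the other 12. Fh1 was at 221 ± 14.7 CPM in Fh1-/- and 249 ± 20.1 CPM in Fh1+/+ kidneys at day 5, and at 350.0 ± 62.4 and 238 ± 13.2 CPM at day 10 (SD, n = 5 each). A count over the whole gene includes the exons that remain after excision, and so it is no test of the genotype labels.

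For most of the 10 genes the genotypes stood apart at both days. The genotypes separated without overlap, in the same direction at both days, for 8 of the 10: 7 were lower in Fh1-/- kidneys (Fcgr2b, Cfap126, Apoa2, Klhdc9, Slamf7, Copa and Dusp23) and 1, Pea15a, was higher. Over all 14171 genes tested at both days this held for 0.141%, or 20 genes, 0.0776% lower and 0.0635% higher. At day 5 alone 9 of the 10 did not overlap, against 0.909% of 14404 genes, and at day 10 alone 8, against 7.85% of 14360. The median size of the log2 fold change was 0.95 over the 10 at day 5, against 0.09 over all genes tested, and 1.37 at day 10, against 0.29. With edgeR, Cfap126, Dusp23 and Olfml2b were called at day 5 and Cfap126, Dusp23 and Klhdc9 at day 10, where calls made up 0.0347% and 0.0557% of the genes tested. DESeq2 called 8 of the 10 at day 5, all but Copa and Tagln2, and 7 at day 10, all but Olfml2b, Apoa2 and Copa, against 0.215% and 5.54% of all genes. Calls other than that of Cfap126 were seldom kept with fewer libraries: when each of the 10 libraries of a day was left out in turn, Cfap126 kept its call in 10 fits at day 5 and in 8 at day 10, Dusp23 in 1 and 2, Klhdc9 in 1 at day 10 and Olfml2b in 0 at day 5. Without Fh1-/- day 10 replicate 2, 6 of the 10 were called at day 10. As these contrasts chose the genes, nothing is read from the counts.

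**Figure D1:**
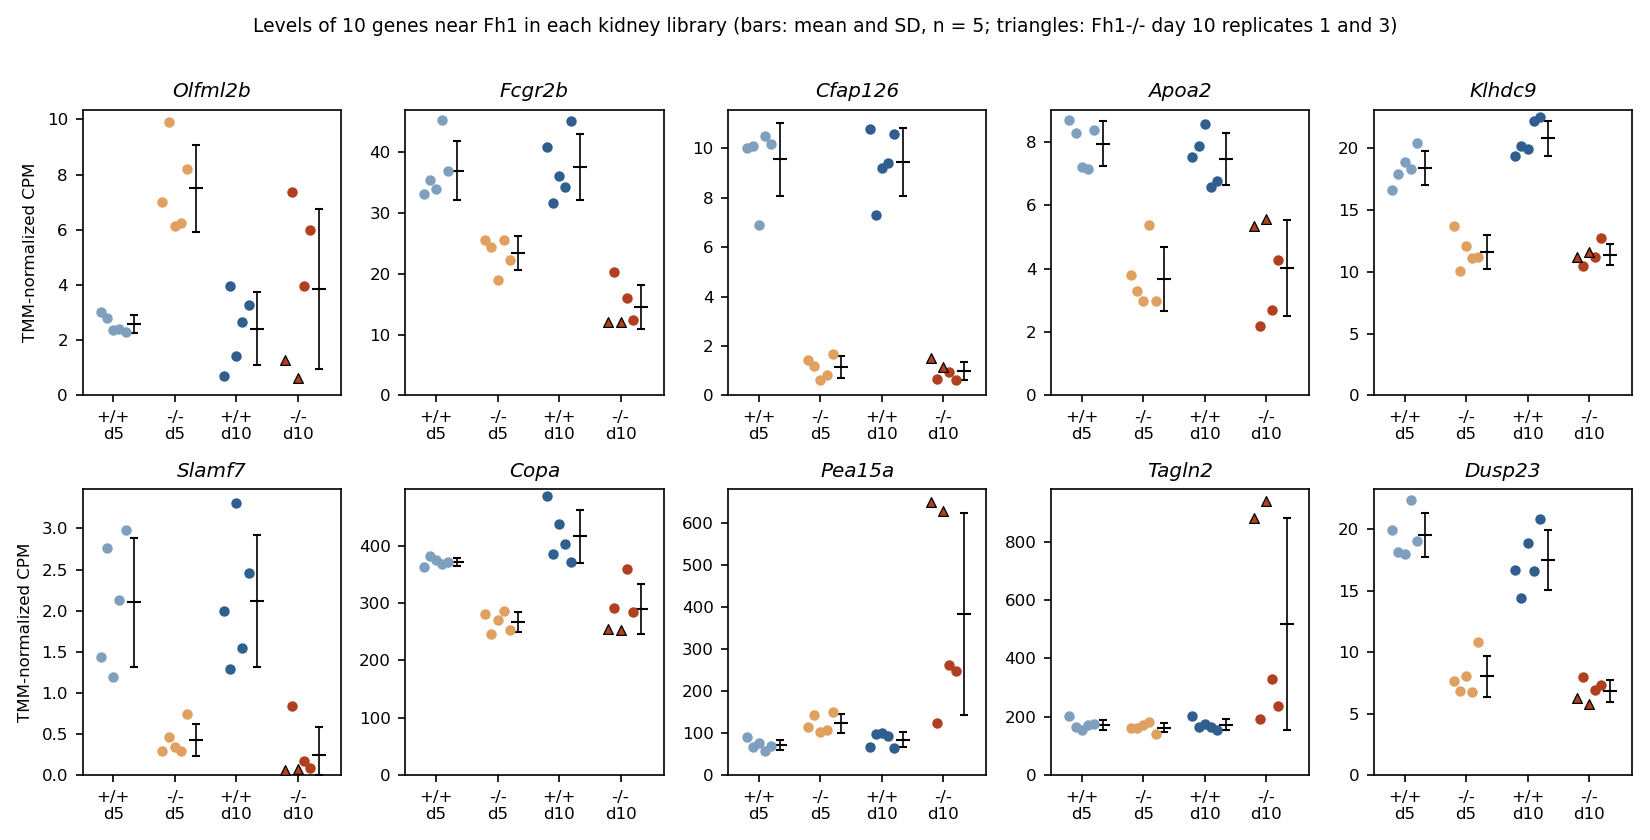
Level of each of the 10 genes, in order along chromosome 1, in every library (vertical axes, TMM-normalized CPM from 0; horizontal axes, genotype and day, d5 and d10). Points are libraries, crosses with bars the mean and SD of 5 libraries (the lower bar of Slamf7 in Fh1-/- kidneys at day 10 is cut at 0), and triangles Fh1-/- day 10 replicates 1 and 3, which have the highest Pea15a and Tagln2 levels.

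Cfap126 had the lowest level in Fh1-/- relative to Fh1+/+ kidneys with all libraries in. It encodes Flattop, a protein that positions basal bodies, the anchors of cilia, in multiciliated cells. At day 5 its level was 1.42, 1.2, 0.630, 0.812 and 1.67 CPM in Fh1-/- replicates 1 to 5, and 10.0, 10.1, 6.91, 10.5 and 10.2 CPM in the Fh1+/+ replicates. The lowest Fh1+/+ library thus stood far above the highest Fh1-/- library. At day 10 the Fh1-/- libraries were at 1.53, 0.675, 1.14, 0.953 and 0.630 CPM and the Fh1+/+ libraries at 10.8, 7.31, 9.23, 9.42 and 10.6 CPM. Fh1-/- kidneys held 12.0% of the Fh1+/+ mean at day 5 and 10.4% at day 10, with log2 fold changes of -3.04 (SE 0.25) and -3.28 (SE 0.27), and -3.65 (SE 0.23) at day 10 without Fh1-/- replicates 1 and 3. Few reads lie behind the Fh1-/- values, 121 over the 5 libraries of day 5 and 84 over those of day 10, against 904 and 901 in Fh1+/+ kidneys. By log2 fold change it ranked 9 from the lowest of all genes tested at day 5 and 14 at day 10.

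Dusp23, which encodes a small dual-specificity phosphatase without a kinase-docking domain, was lower by a similar factor at each day. Its level at day 5 was 7.64, 6.84, 8.02, 6.78 and 10.8 CPM in Fh1-/- and 19.9, 18.1, 18, 22.4 and 19.0 CPM in Fh1+/+ kidneys. At day 10 it was 6.25, 7.99, 5.76, 6.95 and 7.29 CPM against 16.7, 14.4, 18.9, 16.6 and 20.8 CPM. Every Fh1-/- library lay below every Fh1+/+ library at both days, at 41.2% and 39.1% of the Fh1+/+ mean. The log2 fold changes were -1.28 and -1.37, each with an SE of 0.14. Without Fh1-/- replicates 1 and 3 it was -1.24 (SE 0.15) at day 10, with the edgeR call lost (adjusted p 0.0314).

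Klhdc9, one of the kelch domain genes, whose product is little studied, was lower at both days with little spread. At day 5 the Fh1-/- libraries were at 13.7, 10.1, 12.1, 11.1 and 11.2 CPM and the Fh1+/+ libraries at 16.6, 17.9, 18.9, 18.3 and 20.4 CPM. At day 10 they were at 11.2, 10.5, 11.6, 11.2 and 12.7 CPM and at 19.4, 20.2, 19.9, 22.2 and 22.5 CPM. All 5 Fh1-/- values of day 10 fell inside the Fh1-/- range of day 5. The log2 fold change was -0.67 at day 5 and -0.88 at day 10 (SE 0.10 each), with 63.1% and 54.9% of the Fh1+/+ mean. Leaving out Fh1-/- replicates 1 and 3 gave -0.86 (SE 0.11) at day 10, and the edgeR call was lost (adjusted p 0.0314). Pfdn2, the chaperone subunit gene that overlaps it, was at log2 fold changes of 0.13 and 0.46.

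Copa encodes the alpha subunit of the COPI coat, which carries vesicles from the Golgi back to the endoplasmic reticulum, and was the most highly expressed of the lower genes per length of exon (39.5 CPM per kilobase in Fh1+/+ kidneys at day 5). Its level at day 5 was 280.0, 245, 271, 286 and 252 CPM in Fh1-/- and 363, 382, 375, 368 and 372 CPM in Fh1+/+ kidneys, and at day 10 it was 254, 292, 252, 360.0 and 284 CPM against 486, 385, 437, 403 and 371 CPM. Its groups did not overlap at either day, although the gap at day 10 was narrow, from 360.0 to 371 CPM. Fh1-/- kidneys held 71.7% and 69.3% of the Fh1+/+ mean, with log2 fold changes of -0.49 (SE 0.06) and -0.55 (SE 0.13), both under the fold threshold, and -0.42 (SE 0.13) at day 10 without Fh1-/- replicates 1 and 3. Ncstn, the gamma-secretase subunit gene that overlaps Copa, was at -0.33 (SE 0.06) and -0.17 (SE 0.10).

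Apoa2, the second most abundant apolipoprotein of high-density lipoprotein and a product chiefly of the liver, was read at low level in these kidneys. At day 5 it stood at 3.80, 3.28, 2.98, 5.39 and 2.97 CPM in Fh1-/- and at 8.69, 8.27, 7.22, 7.15 and 8.36 CPM in Fh1+/+ kidneys. Day 10 gave 5.33, 2.19, 5.55, 2.69 and 4.27 CPM against 7.53, 7.86, 8.56, 6.58 and 6.76 CPM. Among the Fh1-/- libraries of day 10, replicates 1 and 3 were the highest, yet still under the lowest Fh1+/+ library. The log2 fold change was -1.12 (SE 0.18) at day 5 and -0.91 (SE 0.26) at day 10, and -1.28 (SE 0.24) at day 10 without replicates 1 and 3. The summed level of 10 liver markers ranged from 633 to 2560 CPM in Fh1-/- and from 446 to 2090 CPM in Fh1+/+ kidneys at day 5, while day 10 gave 2530 to 7080 and 358 to 2120 CPM, with no overlap at day 10. Of the 8 markers that could be tested, 3 were below 0 at day 5 and 4 at day 10, with medians of 0.11 and 0.41. Fgb, a fibrinogen chain, was at 0.26 and 8.35, Alb, serum albumin, at 0.08 and -1.75, and Apob, of low-density lipoprotein, at 0.18 and 0.85. The largest part of the sum at day 10 was Cyp2e1, an ethanol-oxidizing enzyme, at a mean of 2210 CPM in Fh1-/- and 832 CPM in Fh1+/+ kidneys, with Fgb at 1130 and 3.44 CPM. Their part in the Apoa2 values was not tested.

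Fcgr2b and Slamf7 encode receptors of leukocytes. Fcgr2b is the inhibitory receptor for immunoglobulin G of B cells, macrophages and some endothelial cells. Its level at day 5 was 25.5, 24.4, 19.0, 25.6 and 22.3 CPM in Fh1-/- and 33.1, 35.4, 33.9, 45.3 and 37.0 CPM in Fh1+/+ kidneys. By day 10 it was 12.1, 20.3, 12.0, 16.1 and 12.4 CPM against 40.9, 31.6, 36.1, 34.3 and 45.2 CPM. Thus 4 of 5 Fh1-/- libraries of day 10 lay below the Fh1-/- range of day 5, while 4 of 5 Fh1+/+ libraries stayed within theirs. Fh1-/- kidneys held 63.3% of the Fh1+/+ mean at day 5 and 38.7% at day 10 (log2 fold changes of -0.67, SE 0.11, and -1.38, SE 0.18). Without Fh1-/- replicates 1 and 3 the day 10 value was -1.21 (SE 0.18).

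Slamf7, a SLAM family receptor of natural killer cells, plasma cells and activated macrophages, was near the limit of what was counted. At day 5 the Fh1-/- libraries were at 0.292, 0.462, 0.344, 0.290 and 0.742 CPM and the Fh1+/+ libraries at 1.44, 2.76, 1.19, 2.13 and 2.98 CPM. At day 10 they were at 0.0613, 0.844, 0.0711, 0.168 and 0.0900 CPM and at 2.00, 1.29, 3.31, 1.55 and 2.46 CPM. The groups did not overlap at either day, but replicate 2 alone holds 15 of the 22 Fh1-/- reads of day 10, and the lowest library has 1. The log2 fold change was -2.28 (SE 0.36) at day 5 and -3.07 (SE 0.65) at day 10, where it was -2.54 (SE 0.67) without Fh1-/- replicates 1 and 3. Fh1-/- replicate 2 weighed most: without it the day 10 value was -4.35 and was called with edgeR, and with other libraries left out in turn it reached -2.82. The day 10 value minus that of day 5 ranged in the same way from -2.07 to -0.51.

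Leukocyte markers were measured beside these receptors. Each of 8 leukocyte markers was below 0 on the log2 scale at both days, with a median of -0.24 at day 5 and -1.05 at day 10, against medians of -0.01 and -0.00 over all genes tested. At day 5 their sum ranged from 55.0 to 132 CPM in Fh1-/- and from 79.8 to 115 CPM in Fh1+/+ kidneys, and at day 10 from 40.5 to 101 and from 95 to 145 CPM. Of the 8, Cd48 lies 3.895 Mb before Fh1, within the span that holds the 10 genes, and is also counted among the SLAM genes below. None of the 8 passed with edgeR at either day. At an unadjusted p under 0.05, 0 were lower at day 5 and 5 at day 10, against 2.37% and 11.9% of all genes (2.42% and 15.1% were higher), and DESeq2 called 0 and 3. The 3 with the lowest p at day 10 were Cd52, a surface glycoprotein of lymphocytes (-1.21), Coro1a, an actin-binding protein of leukocytes (-1.07), and Lcp1, the leukocyte plastin (-0.79). Macrophage markers had medians of -0.05 and -0.47 over 10 genes, with Cd14 at 5.16, Adgre1 at -1.20 and C1qc at -0.71 at day 10 (1.90, -0.80 and -0.37 without Fh1-/- replicates 1 and 3), and summed levels from 140.0 to 317 CPM in Fh1-/- and 149 to 289 CPM in Fh1+/+ kidneys at day 5, while day 10 gave 202 to 1080 and 214 to 332 CPM.

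Of 9 B cell and plasma cell markers 4 could be tested, with medians of 0.43 at day 5 and -0.27 at day 10. Cd79b, of the B cell receptor, was at -0.86 and -1.39, Cr2, a complement receptor, at -0.02 and -0.42, and Mzb1, of antibody-secreting cells, at 0.88 and 0.32, while Jchain, the joining chain of secreted antibodies, named after its values were seen, was at 1.66 and -0.11. Without Fh1-/- replicates 1 and 3, Cr2 was at 0.16 at day 10 and Jchain at 0.38. The sum of the 9 lay between 12.1 and 37.8 CPM in Fh1-/- and between 7.07 and 12.8 CPM in Fh1+/+ kidneys at day 5, with medians of 25.4 and 10.9 CPM, and between 4.48 and 37.3 and 11.6 and 22.4 CPM at day 10. The 9 markers of T and natural killer cells were too low to be tested at either day. Their sum ranged from 0.986 to 5.52 CPM in Fh1-/- and from 2.22 to 4.05 CPM in Fh1+/+ kidneys at day 5, while day 10 gave 0.552 to 1.74 and 3.05 to 4.10 CPM, when the groups did not overlap. No marker of these lists was at 0 in all libraries. The part of leukocyte number in the values of Fcgr2b and Slamf7 was not tested.

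Within 20 Mb of Fh1 also lie 6 of the 14 other Fc receptor genes counted and 9 of the 10 other SLAM genes. Of 7 other Fc receptors tested at day 5, 6 had a log2 fold change below 0 (median -0.32), and of 8 at day 10, 5 did (median -0.65). None was called with edgeR, but at day 10 DESeq2 called Fcer1g and Fcgr4 lower and 1 other higher. Fcer1g, the shared signalling chain, was at -0.44 and -1.14, Fcgr4, an activating receptor, at -0.38 and -1.13, and Pigr, the transporter of polymeric immunoglobulin, which lies 44.7 Mb from Fh1, at -0.32 and 1.74 (0.73 without Fh1-/- replicates 1 and 3). The 5 other SLAM genes tested were all below 0 at both days, with medians of -0.44 and -1.07. With edgeR none of them was called, whereas DESeq2 called Slamf9 lower at day 10. Slamf9 had log2 fold changes of -0.40 and -2.25, Slamf8 -0.20 and -1.50, and Cd48 -0.44 and -1.02, and without Fh1-/- replicates 1 and 3 the day 10 values were -1.83, -0.91 and -0.42. Ly9 and Cd84, named after their values were seen, were lower at day 5, at -1.27 and -1.11. At day 5, the log2 fold change of Slamf7 (-2.28) was thus below that of each of these SLAM genes. That of Fcgr2b was below those of Fcer1g and Fcgr4 at day 5 (-0.67) and at day 10 (-1.38). These differences were not tested.

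Olfml2b, Pea15a and Tagln2 were the members with higher mean levels in Fh1-/- kidneys, at one day or both. Olfml2b encodes a secreted olfactomedin domain protein of the extracellular matrix. Its level at day 5 was 7.02, 9.89, 6.13, 6.26 and 8.21 CPM in Fh1-/- and 3.03, 2.81, 2.37, 2.40 and 2.29 CPM in Fh1+/+ kidneys, with no overlap and a log2 fold change of 1.53 (SE 0.17). At day 10 it was 1.29, 7.37, 0.640, 3.98 and 5.98 CPM against 0.717, 3.98, 1.44, 2.67 and 3.29 CPM. The lowest 2 of these Fh1-/- libraries were replicates 1 and 3, and the groups overlapped, with a log2 fold change of 0.66 (SE 0.64). Without replicates 1 and 3 it was 1.25 (SE 0.47). The Fh1+/+ libraries also spread more widely at day 10, with a coefficient of variation of 55.1% against 12.5% at day 5. Markers of fibroblasts and smooth muscle, cells that make matrix, had medians of -0.22 at day 5 and -0.95 at day 10 over 10 genes, 9 and 10 of them below 0, and Col1a2, Des and Pdgfrb were at -1.86, -0.87 and -1.14 at day 10. Without replicates 1 and 3 these were at -1.33, -0.53 and -0.71. Dcn, a marker of the same list named after its values were seen, then moved from -0.47 to 0.10. The sum of the 10 markers ranged from 296 to 556 CPM in Fh1-/- and from 402 to 593 CPM in Fh1+/+ kidneys at day 5, while day 10 gave 132 to 463 and 356 to 733 CPM. Their part in the Olfml2b values was not tested.

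Pea15a encodes a small cytoplasmic phosphoprotein with a death effector domain that binds ERK kinases. At day 5 it was at 115, 143, 102, 106 and 151 CPM in Fh1-/- and 90.3, 66.3, 76.7, 56.8 and 68.1 CPM in Fh1+/+ kidneys, which did not overlap (log2 fold change 0.78, SE 0.15). At day 10 the Fh1-/- libraries stood at 650.0, 124, 629, 262 and 248 CPM and the Fh1+/+ libraries at 65.6, 98.1, 100, 91.9 and 65.1 CPM. Here 4 of 5 Fh1-/- libraries lay above the whole Fh1-/- range of day 5, and replicates 1 and 3 stood well above the other 3. The log2 fold change at day 10 was 2.17 (SE 0.42), and 1.32 (SE 0.25) without these 2. Dcaf8, the overlapping gene on the other strand, was in the opposite direction, at -0.35 (SE 0.09) and -0.49 (SE 0.21).

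Tagln2, an actin-binding protein of the transgelin family, did not differ at day 5 beyond the spread. Its level was then 163, 160.0, 171, 181 and 141 CPM in Fh1-/- and 201, 166, 153, 170.0 and 176 CPM in Fh1+/+ kidneys, a log2 fold change of -0.09 (SE 0.09). At day 10 it was 883, 193, 940.0, 329 and 238 CPM against 203, 166, 174, 166 and 155 CPM. All 5 Fh1-/- libraries of day 10 lay above the Fh1-/- range of day 5, but replicate 2, at 193 CPM, lay under the highest Fh1+/+ library, at 203 CPM. The log2 fold change was 1.57 (SE 0.43), and 0.55 (SE 0.17) without replicates 1 and 3, when the DESeq2 call was lost as well (adjusted p 0.0458). Tagln2 was the most highly expressed of the 10 per length of exon, at 83.3 CPM per kilobase in Fh1+/+ kidneys at day 5, followed by Copa at 39.5 and Pea15a at 18.6.

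**Figure D2:**
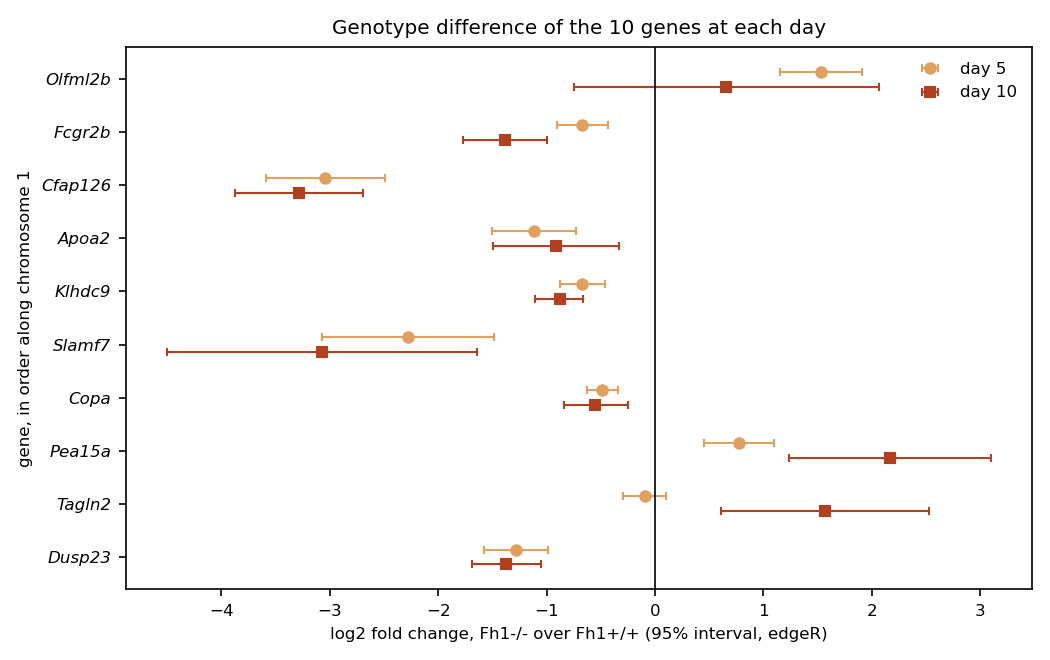
Log2 fold change of each gene between Fh1-/- and Fh1+/+ kidneys (horizontal axis) at day 5 (circles) and day 10 (squares), with 95% intervals from edgeR, in order along chromosome 1. The intervals of both days lie below 0 for Fcgr2b, Cfap126, Apoa2, Klhdc9, Slamf7, Copa and Dusp23, and Tagln2 moves from -0.09 to 1.57.

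The question the 2 days pose is whether a neighbour differed by a constant amount or by an amount that grew with time after excision. The genotype log2 fold change at day 10 minus that at day 5, fitted on all 20 libraries, was -0.24 for Cfap126 (95% interval -0.99 to 0.50), -0.09 for Dusp23 (-0.49 to 0.31), -0.22 for Klhdc9 (-0.50 to 0.05), -0.07 for Copa (-0.37 to 0.23) and 0.19 for Apoa2 (-0.48 to 0.86). For these 5 genes the interval held 0, and for Dusp23, Klhdc9 and Copa it reached no further than 0.50 to either side. Slamf7 and Olfml2b, at -0.80 (-2.34 to 0.75) and -0.88 (-2.29 to 0.54), had intervals too wide to tell a constant difference from a changing one. For the remaining 3 the interval lay to one side of 0: Fcgr2b at -0.73 (-1.16 to -0.29), Pea15a at 1.39 (0.44 to 2.34) and Tagln2 at 1.65 (0.69 to 2.62). The adjusted p from edgeR was 0.0811 for Fcgr2b, 0.114 for Pea15a and 0.0748 for Tagln2. None of the 10 was called for this difference with edgeR, against 0.0335% of 14934 genes tested, or with DESeq2, against 1.82%. At an unadjusted p under 0.05 from edgeR it was 3 of 10, against 20.2% of all genes, a share among 10 genes from which nothing is read. This difference is built from the contrasts that chose the genes, and an interval that holds 0 does not show that the days were alike.

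Leaving out Fh1-/- day 10 replicates 1 and 3 brought the largest of these values nearer to 0. Pea15a was then at 0.54 (-0.08 to 1.17), so its interval held 0, and Tagln2 at 0.64 (0.25 to 1.03). Fcgr2b was at -0.55 (-0.98 to -0.12), Olfml2b at -0.28 (-1.31 to 0.74) and Slamf7 at -0.27 (-1.80 to 1.26). Cfap126 stood at -0.61 (-1.34 to 0.12), Dusp23 at 0.04 (-0.37 to 0.45), Klhdc9 at -0.20 (-0.49 to 0.09), Copa at 0.07 (-0.21 to 0.34) and Apoa2 at -0.17 (-0.76 to 0.42).

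**Figure D3:**
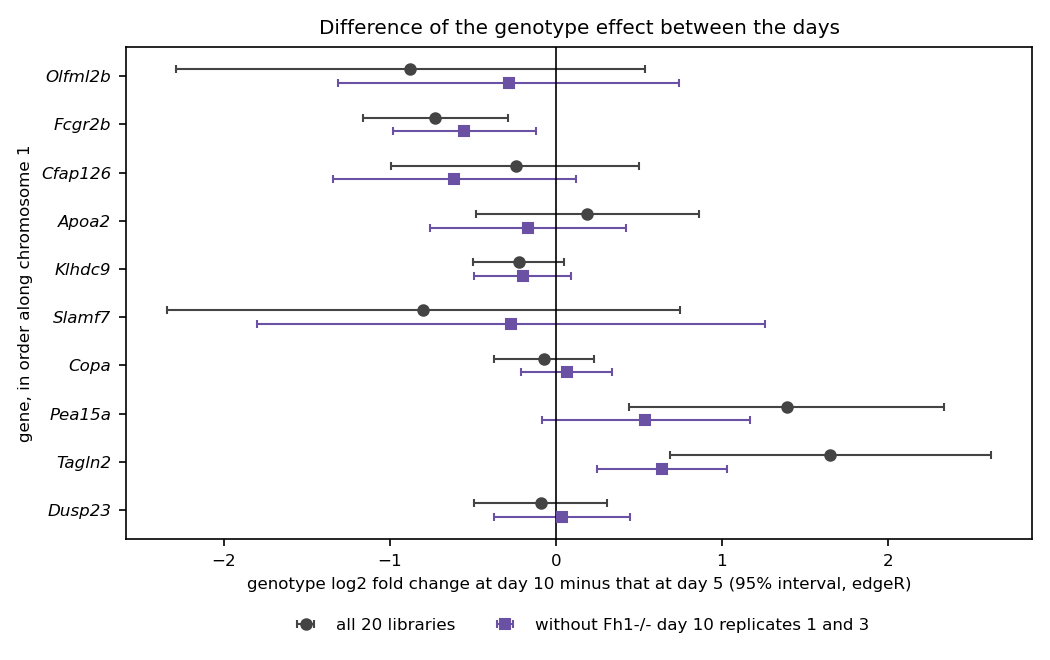
Genotype log2 fold change at day 10 minus that at day 5 (horizontal axis, with 95% intervals from edgeR) for all 20 libraries (circles) and without Fh1-/- day 10 replicates 1 and 3 (squares). The interval excludes 0 for Fcgr2b, Pea15a and Tagln2 with all libraries, and for Fcgr2b and Tagln2 without the 2.

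Within each genotype the days could also be set against each other. In Fh1+/+ kidneys, a comparison that did not choose the genes, none of the 10 was called between day 5 and day 10 with edgeR or DESeq2, against 0.0% of 14501 genes with each tool. The log2 changes were small, from -0.15 for Dusp23 to 0.23 for Pea15a (SE 0.16), with a median size of 0.09 against 0.11 over all genes. Klhdc9, at 0.18 (SE 0.08), was the only one of the 10 with an unadjusted p under 0.05 from edgeR, against 3.97% of all genes. In Fh1-/- kidneys 9 of the 10 passed the filter on low counts, Slamf7 being too low, and none was called with edgeR, against 0.576% of 14235 genes. DESeq2 called 3, against 9.0%, namely Fcgr2b, Pea15a and Tagln2, and these 3 were also those at an unadjusted p under 0.05 from edgeR, against 32.2%. Their log2 changes from day 5 to day 10 were -0.70 (SE 0.17), 1.62 (SE 0.41) and 1.64 (SE 0.43). Without Fh1-/- day 10 replicates 1 and 3 they were -0.55 (SE 0.17), 0.75 (SE 0.23) and 0.61 (SE 0.16), and DESeq2 no longer called Fcgr2b (adjusted p 0.0298) or Pea15a (0.0209). Olfml2b was at -0.97 (SE 0.53), with 4 of 5 libraries of day 10 below the day 5 range, and at -0.40 (SE 0.24) without the 2. The log2 changes of Cfap126, Dusp23, Klhdc9, Copa and Apoa2 were -0.25 (SE 0.35), -0.25 (SE 0.17), -0.05 (SE 0.12), 0.09 (SE 0.12) and 0.10 (SE 0.30).

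The genes that stand next to the members were taken by position. Changed genes of the window were made members, so few calls among the others follow in part from that choice. Their values are set beside those of the members as a description only. For each member the nearest tested gene on either side was taken, 19 different genes in all, none of them a member. With edgeR 0 of the 19 were called at either day, against 0.0347% of all genes at day 5 and 0.0557% at day 10. At an unadjusted p under 0.05 from edgeR there were 4 at day 5 and 8 at day 10, against 4.78% and 27.0% of all genes. DESeq2 called 0 at day 5 and 3 at day 10, Fcgr4, Fcer1g and Igsf9, against 0.215% and 5.54%. None of the 19 separated the genotypes without overlap in the same direction at both days, against 0.141% of all genes tested. In 12 of 19 the log2 fold change was under 0.58 in size at both days. Over all genes tested in the span, the members among them, the median size was 0.35 at day 5 and 0.68 at day 10. The medians over all genes were 0.09 and 0.29. Sdhc, a subunit gene of succinate dehydrogenase separated from Cfap126 by a gap of 197 bases, was at 0.01 (SE 0.10) and -0.24 (SE 0.13). Tomm40l and Fcer1g, which flank Apoa2 at 2539 and 3192 bases, were at -0.01 and -0.44 at day 5 and at -0.23 and -1.14 at day 10. Nos1ap and Atf6, to either side of Olfml2b, were at 0.02 and -0.13 at day 5 and at 0.12 and 0.21 at day 10. Over the 19 the values ranged from -1.27 to 0.46 at day 5. At day 10 they ranged from -1.64, for Igsf9 next to Tagln2, to 0.70. Pex19, next to Copa, was at -0.12 and -0.11, and Igsf8, next to Pea15a, at 0.01 and -0.00. Dusp12, a phosphatase gene of the Dusp23 family next to Fcgr2b, was at 0.46 (SE 0.08) and 0.54 (SE 0.18). At the end of the span, Slamf8, between Tagln2 and Dusp23, was at -0.20 and -1.50, and Aim2, the next tested gene after Dusp23, at -0.14 and 0.24.

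Within 20 Mb of Fh1, 404 genes were counted, 65 of them in the span that holds the 10. Of 257 genes tested at both days in this window, 12 separated the genotypes without overlap in the same direction at both days, and all 12 lay before Fh1, with 0 among the 109 tested after it. They were the 8 members named above, Pyhin1 and Ifi202b of the p200 family, and 2 genes without a p200 symbol, named here after their values were seen. These 2 were 3110045C21Rik, a gene known by a clone name, 5.63 Mb from Fh1 (log2 fold changes -1.65 and -2.80), and Pydc3, a pyrin domain gene 1.90 Mb from Fh1 (-3.09 and -3.84). Both were called by DESeq2 and not by edgeR at both days. The p200 family was taken by gene symbol. Pydc3 lies between the p200 genes Pyhin1 and Ifi204, so it may belong to that family. The other 8 of the 20 such genes lay elsewhere, 1 on chromosome 1 at 90.67 Mb from Fh1 (Slc16a14) and 7 on other chromosomes, where 13323 genes were tested at both days. Of the 11 lower in Fh1-/- kidneys, 10 lay within 20 Mb of Fh1. With edgeR no gene of the window other than members and genes with a p200 symbol was called at either day, whereas DESeq2 called 21 at either day and 2 at both. A lack of calls outside the 10 follows in part from how they were chosen.

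**Figure D4:**
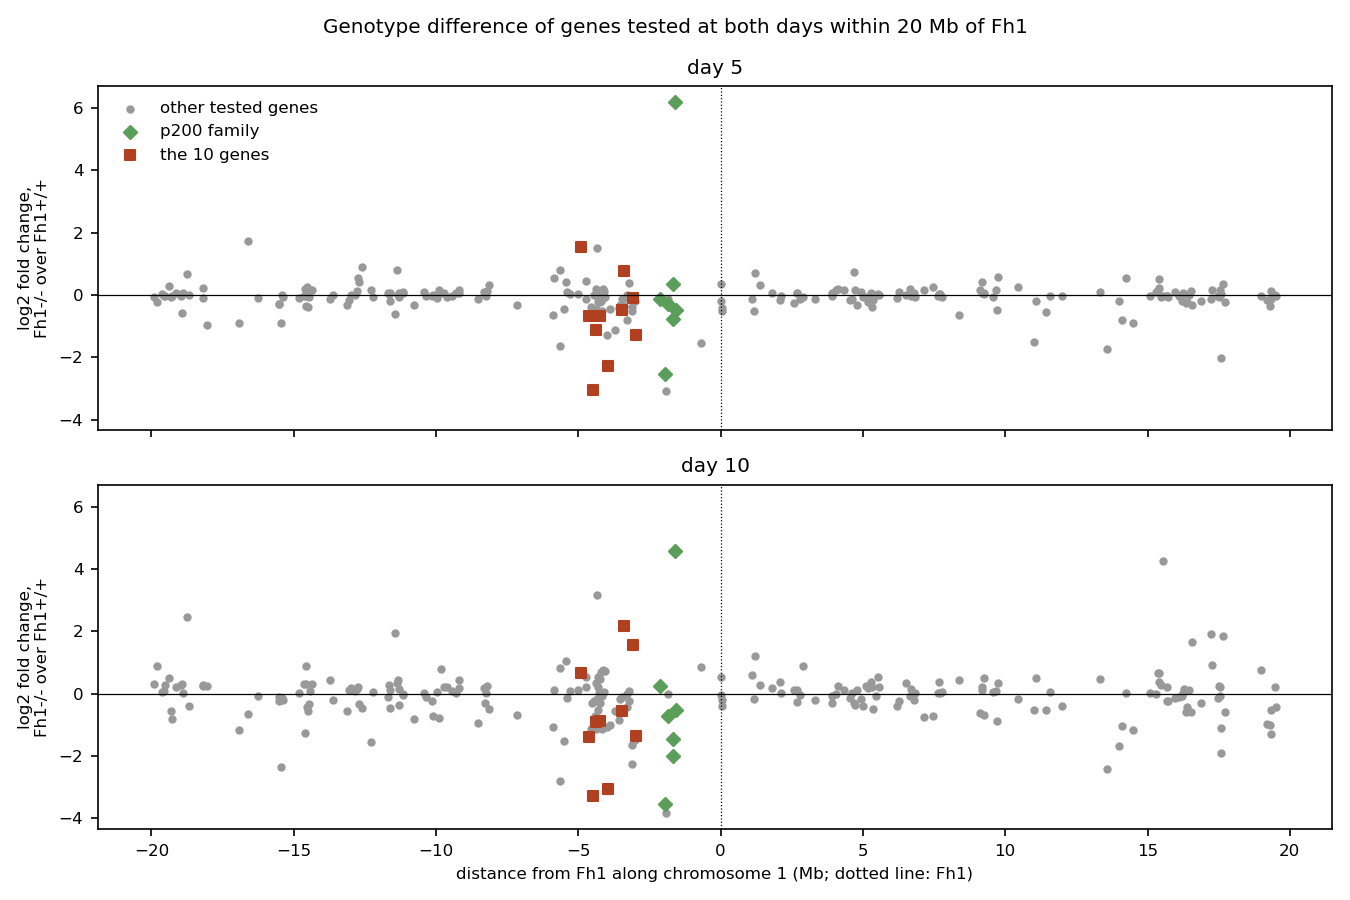
Log2 fold change between Fh1-/- and Fh1+/+ kidneys (vertical axes) of the genes tested at both days within 20 Mb of Fh1 against their distance from it (horizontal axis, Mb; dotted line, Fh1) at day 5 (top) and day 10 (bottom). Squares are the 10 genes, which lie between 2.97 and 4.92 Mb before Fh1, diamonds the genes with a p200 symbol and grey points the other genes.

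Other genes of the same families were counted for comparison, of which Dusp12, Dedd, Myoc and Cfap45 also lie within 20 Mb of Fh1. Of 17 other genes of COPI transport tested, none was called with edgeR or DESeq2 at either day, and their median log2 fold change was -0.00 at day 5 and 0.16 at day 10, against -0.49 and -0.55 for Copa. Of these, Copz2, Arfgap2 and Tmed10 had the lowest p at day 10, at -0.53, 0.29 and 0.37. Over 16 other apolipoprotein genes tested at day 5 the median was 0.01, and over 15 at day 10 it was 0.31, with Apol9b at -1.68, Apoc3 at 2.15 and Apod at 2.07 (-1.48, 1.30 and 2.50 without Fh1-/- replicates 1 and 3). The 11 other atypical phosphatases had medians of 0.05 and 0.22, with Dusp12 at 0.54, Dusp15 at -1.73 and Dusp18 at -0.60 at day 10 (0.25, -1.07 and -0.32 without the 2). Neither list had an edgeR call apart from Dusp23. At day 10 DESeq2 called 3 apolipoprotein genes higher and 1 lower, Apoa2 not among them, against 3.49% and 2.05% of all genes. It called no atypical phosphatase other than Dusp23.

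Of the cilium genes 10 others could be tested, with medians of -0.12 at day 5 and -0.14 at day 10, and none was called with edgeR or DESeq2 (Cfap69, Cfap70 and Cfap52 at 0.64, -1.11 and -1.30 at day 10). The 8 other kelch domain genes had medians of 0.01 and -0.06, with Klhdc8a, Klhdc10 and Klhdc8b at -0.33, -0.14 and -0.15 at day 10. The 7 other olfactomedin genes tested had medians of 0.07 and -0.52, with Olfm3, Olfml2a and Olfm4 at -0.87, -1.66 and 1.88 at day 10, but -0.52, -1.07 and -0.54 without Fh1-/- replicates 1 and 3, so that Olfm4 turned in direction. The 5 other death effector domain genes had medians of -0.03 and 0.28, with Casp8, Dedd2 and Cflar at 1.18, 0.55 and 0.28 (0.29, 0.32 and 0.06 without the 2), and the 4 other transgelins and calponins -0.13 and -0.49, with Cnn2, Cnn3 and Tagln at -1.11, 0.71 and -0.56. No gene of these lists other than members was called with edgeR at either day.

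The genes whose levels most resembled each member over the 20 libraries were in large part members themselves. By Pearson correlation of log2 CPM, Cfap126 was most like Dusp23 (r = 0.944) and then Klhdc9 (0.924), Dusp23 like Cfap126 and Pyhin1 (0.930), and Klhdc9 like Cfap126 and Dusp23 (0.901). Slamf7 was most like Dusp23 (0.929) and Fcgr2b (0.924), and Fcgr2b like Slamf7 and Ppox (0.921), a heme synthesis gene 4.32 Mb from Fh1. Apoa2 and Copa were likewise nearest to Cfap126 and Klhdc9, at 0.854 and 0.818, and 0.828 and 0.854. The 3 genes with higher levels were not among these: Pea15a was most like F11r (0.972), a junction protein gene 4.14 Mb from Fh1, and Tgfbr1 (0.963), on chromosome 4. Tagln2 was most like Ctsb (0.982) and Carhsp1 (0.980), on chromosomes 14 and 16, and Olfml2b like Trim65 and Ccdc85c (0.767 each), on chromosomes 11 and 12. These correlations span 4 groups that differ in genotype and share Fh1-/- day 10 replicates 1 and 3, so they describe the groups as much as single libraries. The members were chosen for a genotype difference, so likeness among those of the same direction follows in part from that choice.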

How the data were processed

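The authors deposited raw counts per gene symbol for 20 mouse kidney libraries, neither normalized nor pooled. Per the methods of the study, stranded libraries of polyadenylated RNA were sequenced, reads mapped with STAR 2.6.0c to GRCm38, adapters and reads of low mapping quality removed, and reads counted with Rsubread on GENCODE models. Whether reads were counted by strand is not stated. From these counts, the 10 libraries of each day were fitted separately with edgeR 4.0.16 in R 4.3.3 (TMM, filterByExpr, glmQLFit, glmQLFTest, Benjamini-Hochberg over all genes tested), the difference between the days on all 20, and the days within a genotype on its 10. A call needed an adjusted p under 0.01 and an absolute log2 fold change over 0.58. All p and adjusted p are two-sided and from edgeR unless DESeq2 1.42.0 is named. Standard errors are the log2 fold change over the root of F. The fits at each day and of the difference between the days were tested on simulated counts with edgeR and DESeq2. The other fits were not.

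The 10 genes, the gene lists and the tests were chosen with earlier results of these data known. Genes named besides the 10 were, by rule, Fh1, the nearest tested gene on each side, other calls within 20 Mb, from each list the 3 lowest in p at day 10 and the 2 genes most alike each member. Positions came from GENCODE vM21 for 23334 symbols and RefSeq (305 by current and 686 by earlier symbol), leaving 96 unplaced. The alternatives were RLE size factors, DESeq2, no filter or 1 CPM in 5 libraries, a block for the replicate number, a covariate for Y-linked level, 1 fit of all libraries, limma-voom (limma 3.58.1) with quality weights, an adjusted p under 0.05 without a fold threshold, a window of 10 or 40 Mb, each library left out in turn, and leaving out both Fh1-/- day 10 replicates 1 and 3. The depth of 16654829 to 25001294 counts per library limits genes such as Slamf7. No 2 libraries of a group agreed within sampling noise (lowest chi-square per degree of freedom 7.49 over 40 pairs, for Fh1-/- day 10 replicates 1 and 3).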

Additional observations from a re-analysis of the deposited data

Results flagged for a closer look

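Cfap126 in Fh1+/+ day 5 replicate 3 was at 6.91 CPM, far below the other 4 libraries of its group, at 10.0 to 10.5 CPM. Slamf7 in Fh1-/- day 10 replicate 2 was at 0.844 CPM, far above the other 4, at 0.0613 to 0.168 CPM. Libraries were flagged by the size of such a gap against the range of their group of 5 (Dixon's test). Chance passes the threshold of this flag in about 1 of 20 groups, and 2 of the 40 groups tested passed it. Both libraries stay on their own genotype's side of the other genotype, and the cause was not tested.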

How the results depend on the processing

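Of 410 values of single genes recomputed under alternatives other than leaving out 1 library, 363 kept their direction and side of the threshold, 11 lost and 24 gained a call, and 12 changed sign. Among the 10 genes, calls at day 5 (3 with edgeR) were 5 at the looser threshold (adjusted p under 0.05 and any fold) and 8 with DESeq2, and at day 10 (3) they were 6 and 7, 7 in 1 fit of all libraries and 1 without both Fh1-/- day 10 replicates 1 and 3, which leaves 8 libraries. Between the days in Fh1-/- kidneys (0) they were 3 at the looser threshold, with DESeq2 and in 1 fit. Over all genes, calls at day 5 (5) were 9 at the looser threshold, 31 with DESeq2 and 8 with the Y-linked covariate. Calls at day 10 (8) were 406, 796 with DESeq2, 16 with no filter, 3 with the stricter filter, 838 in 1 fit, 15 with limma-voom and 2 without both replicates. For the difference between the days (5) they were 161, 272 with DESeq2, 10 with no filter, 11 with the stricter filter, 62 with the Y-linked covariate, 9 with limma-voom and 3 without both. Between the days in Fh1-/- kidneys (82) they were 1653, 1281, 299 with the Y-linked covariate, 1294 in 1 fit, 484 with limma-voom and 21 without both.

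With the replicate number as a block, calls were 0 among the 10 and 0 over all genes at each day, 2 over all genes for the difference between the days and 0 between the days in Fh1-/- kidneys. The numbers do not pair the libraries, as same-numbered Fh1-/- and Fh1+/+ libraries deviated from their group means with correlations from -0.51 to 0.33.

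In these alternatives the sign changed for values of 0.19 or less in size. The difference between the days was -0.12 for Apoa2 and 0.02 for Dusp23 with limma-voom, and -0.17 for Apoa2, 0.07 for Copa and 0.04 for Dusp23 without both replicates. Between the days in Fh1+/+ kidneys, Cfap126 was at 0.01 with the Y-linked covariate and with limma-voom, which gave -0.18 for Slamf7 and 0.02 for Tagln2. In Fh1-/- kidneys Apoa2 was at -0.03 with the covariate, -0.25 with limma-voom and -0.29 without both. The causes were not tested.

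Leaving out 1 library at a time gave 1 to 2 calls among the 10 and 2 to 4 over all genes at day 5, and 0 to 6 and 0 to 235 at day 10. For the difference between the days the ranges were 0 to 2 and 3 to 296, in Fh1+/+ kidneys 0 to 0, and in Fh1-/- kidneys 0 to 2 and 0 to 774, and the highest of these counts other than at day 5 came without Fh1-/- day 10 replicate 2. The median size of the log2 fold change over the 10 ranged from 0.87 to 1.03 at day 5 and from 1.28 to 1.48 at day 10. For the difference between the days it was 0.37 to 0.61, and within Fh1+/+ and Fh1-/- kidneys 0.07 to 0.15 and 0.11 to 0.47. The genotype difference kept its sign for all 10 genes at both days in each of these fits. The difference between the days changed sign for Copa (-0.16 to 0.02) and Dusp23 (-0.15 to 0.04), the change in Fh1+/+ kidneys for Olfml2b (-0.35 to 0.14), Fcgr2b (-0.05 to 0.11), Cfap126 (-0.11 to 0.07), Slamf7 (-0.20 to 0.18) and Tagln2 (-0.07 to 0.06), and that in Fh1-/- kidneys for Apoa2 (-0.04 to 0.28) and Klhdc9 (-0.09 to 0.02).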
